A study of Mus musculus with 24 samples.

Results

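The regions described here were open chromatin in mouse epidermal stem cells (EpdSCs) before SOX9 was switched on and had no peak after it, both in skin and in culture. They were chosen by their peaks in 4 deposited ATAC-seq peak lists: a peak at D0 in skin and in uninduced cultured cells (noDOX), and none at W2 in skin and none in cultured cells given wild-type SOX9 (WT-SOX9). Of 134312 union regions of all 12 lists on chromosomes 1 to 19 and X, 31992 had both a D0 and a noDOX peak, and 1134 of these met the rule. With a common −log10 q-value minimum for the skin lists, an alternative that shortens W2 most, 2749 regions would meet it. Closed means here that a list holds no peak in the region, and accessibility below the peak threshold would read the same way.

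In ATAC-seq the Tn5 transposase inserts adapters into accessible DNA, so that peaks mark promoters and enhancers. The 24 samples fell into 12 groups of 2 replicates, all from male CD1 mice and all with the K14rtTA driver, in which the Krt14 promoter of basal keratinocytes drives the doxycycline (DOX) dependent activator. The skin groups carried K14rtTA with TRE-myc-Sox9 and were sorted as Ly6A-high, CD49f-high and CD34-neg cells lacking CD31, CD45, CD117 and CD140a, at D0 (postnatal day 21) and after 1 (day 28), 2 (day 35) and 6 weeks (day 63) of DOX. The W12 cells, of the same genotype and sort, came per the study's methods from grafts of neonatal skin on immunocompromised hosts, so week and tissue source cannot be told apart there. The cultured cells were back skin keratinocytes, either uninduced or given DOX at 1 µg per ml, for 3 days by the labels of the first WT-SOX9, ΔHMG-SOX9 and ΔTA-SOX9 replicates and by the peak names of all 6 DOX lists. The noDOX and WT-SOX9 groups were K14rtTA; TRE-myc-Sox9, ΔHMG-SOX9 (SOX9 without its DNA-binding domain) was TRE-myc-Sox9noHMG, and ΔTA-SOX9 (without its transactivation domain) was TRE-myc-Sox9noTA. AFOS, a dominant-negative FOS, was TRE-FLAG-AFOS, SOX9+AFOS carried TRE-myc-Sox9 with TRE-FLAG-AFOS, and SOX9+ARID1a carried TRE-myc-Sox9 with TRE-ARID1a (ARID1a belongs to the SWI/SNF remodelling complex). Per the study's methods the SOX9 forms, AFOS and ARID1a were delivered by lentivirus with drug selection. The AFOS and ARID1a viruses went into cells with K14rtTA alone or into cells that already carried TRE-myc-Sox9. SOX9 was therefore not delivered in the same way in all arms. For the sorted skin cells animals were pooled within a replicate, and both replicates of a group were pooled before peaks were called. Each group is therefore 1 list, no value below has a replicate check, and no test between conditions could be made.

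SOX9 is a high-mobility-group transcription factor that specifies hair follicle fate and binds its motif even in closed chromatin. AP1 factors, dimers of FOS and JUN proteins, keep many enhancers of epidermal cells accessible, and GATA3 and TP63 act with them in the epidermal programme. When a cell changes fate, enhancers of the former fate can lose accessibility.

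The following facts about the lists bear on the values. A peak over the last Sox9 exon, where the transgene can be seen, had a score of 13.5 at D0, 15.1 at W2, 9.22 at W6 and 8.84 at W12, while the list labelled W1 had none and is called so below. The scores at W6 and W12 were thus below that at D0. In culture it was 3.71 in noDOX, 21.2 in WT-SOX9, 71.9 in ΔHMG-SOX9, 5.11 in SOX9+AFOS and 3.71 in SOX9+ARID1a, and ΔTA-SOX9 and AFOS had none. This peak was not higher in SOX9+ARID1a than in noDOX, although that arm carries a Sox9 transgene by its label. The ΔTA-SOX9 construct lacks the transactivation domain, and whether it keeps this exon was not examined, so its missing peak does not bear on its label. Scores of different lists are not on a known common scale, and the names of these arms stand below for the lists so labelled. The list labelled AFOS held 8 peaks confined to exons of Arid1a past the first and SOX9+AFOS held 7, against 12 in SOX9+ARID1a and at most 1 in each of the other 9 lists, and the part of this in the results was not tested. The peak names of AFOS, SOX9+AFOS and SOX9+ARID1a record that fragments were the input, which the other lists' names do not. Promoters of all 6 keratinocyte markers tried (Krt5, Krt14, Trp63, Itga6, Col17a1 and Cdh1) had a peak in all 12 lists. The immune promoters Ptprc, Cd3e and Cd207 had none in any. Of the fibroblast genes Pdgfra had a peak in all 12, Col1a1 in 11 and Twist2 in 0, of the melanocyte genes Mitf in 12, Mlana in 1 and Sox10 in 0, and of the endothelial genes Tek in 3, Pecam1 in 2 and Cdh5 in 0. The part of these cell types in the results was not tested.

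The central 200 bp of 8 members are shown because they hold AP1 or GATA letters, which were more frequent in members than in regions with a peak in all 4 lists of the rule, and because they cover several of the states described below. Sequences are the plus strand of GRCm38, and capitals mark matches on either strand to the AP1 letters TGACTCA and the GATA letters AGATAA.
Wdr60, chr12:116254778-116254977: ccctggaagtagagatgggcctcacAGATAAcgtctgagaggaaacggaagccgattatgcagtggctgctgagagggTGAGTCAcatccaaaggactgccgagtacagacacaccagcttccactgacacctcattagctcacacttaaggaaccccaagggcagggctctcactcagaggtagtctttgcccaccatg
Ikbke, chr1:131293965-131294164: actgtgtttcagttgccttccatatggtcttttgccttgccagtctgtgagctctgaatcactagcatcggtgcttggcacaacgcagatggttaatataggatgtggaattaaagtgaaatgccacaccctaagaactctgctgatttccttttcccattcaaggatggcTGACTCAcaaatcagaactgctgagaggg
Mrgprb3, chr7:48658029-48658228: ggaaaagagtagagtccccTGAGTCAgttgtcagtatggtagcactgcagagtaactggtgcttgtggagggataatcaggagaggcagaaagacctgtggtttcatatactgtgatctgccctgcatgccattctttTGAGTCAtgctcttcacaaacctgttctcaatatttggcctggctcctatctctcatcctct
Fbxo32, chr15:58223014-58223213: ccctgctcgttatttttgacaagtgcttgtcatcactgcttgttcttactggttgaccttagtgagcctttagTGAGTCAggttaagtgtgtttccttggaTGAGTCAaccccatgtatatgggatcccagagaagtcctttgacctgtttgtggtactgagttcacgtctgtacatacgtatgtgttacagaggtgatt
Slc1a3, chr15:8676500-8676699: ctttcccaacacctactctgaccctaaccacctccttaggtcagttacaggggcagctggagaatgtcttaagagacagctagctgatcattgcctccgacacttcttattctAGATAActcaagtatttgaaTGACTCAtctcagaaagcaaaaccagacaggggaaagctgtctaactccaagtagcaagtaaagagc
Crp, chr1:172679383-172679582: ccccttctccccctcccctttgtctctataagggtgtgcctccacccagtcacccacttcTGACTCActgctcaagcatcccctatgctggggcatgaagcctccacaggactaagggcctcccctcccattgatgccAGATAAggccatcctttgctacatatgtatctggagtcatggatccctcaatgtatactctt
Itgb6, chr2:60695910-60696109: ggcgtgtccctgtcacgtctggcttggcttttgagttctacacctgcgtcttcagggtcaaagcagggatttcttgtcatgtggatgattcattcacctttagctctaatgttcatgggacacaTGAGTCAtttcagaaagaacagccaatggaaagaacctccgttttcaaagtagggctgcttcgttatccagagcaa
Shh, chr5:28397375-28397574: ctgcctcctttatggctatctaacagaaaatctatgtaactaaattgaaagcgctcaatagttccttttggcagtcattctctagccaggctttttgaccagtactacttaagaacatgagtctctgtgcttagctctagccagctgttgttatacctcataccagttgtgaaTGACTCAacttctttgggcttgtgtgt

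The Wdr60 window held 1 GATA and 1 AP1 match, and so did those near Slc1a3 and Crp, which had no peak in any list outside D0 and noDOX. The Mrgprb3 and Fbxo32 windows each held 2 AP1 matches. All 8 regions lay in introns or between genes, and the gene named is the one with the nearest transcription start site (TSS), which need not be its target.

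Loss in skin and closure in culture coincided at part of the regions. Among the 31992 regions with D0 and noDOX peaks, 7.30% had no peak at W2, 16.2% had none in WT-SOX9, and 3.54% had neither, which are the members. Of the 2334 lost at W2, 48.6% were closed in culture too, and of the 5171 closed in culture 21.9% were lost at W2. These shares follow from the choice of members and are given as description only. The other regions serve as comparison classes: 1200 closed in skin only, 4037 closed in culture only and 25621 kept in both.

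The members were weak peaks to begin with. The peak score, which the authors normalized in peak calling and cut at 3, had a median of 5.21 at D0 (lowest 3.01, highest 35.5) and of 5.08 in noDOX (highest 30.0). In regions kept in both the medians were 18.1 and 21.4. By quartiles of the noDOX score of all 31992 regions, 867 members (76.5%) were in the lowest, 242 in the second, 25 in the third and 0 in the highest, and by the D0 score the numbers were 830, 254, 45 and 5. Just inside the threshold, 549 members (48.4%) had a D0 or a noDOX score under 4. Just outside it lay 527 regions whose only W2 or WT-SOX9 peak had a score under 4. The files do not state how the score was normalized, so scores of different lists are given side by side as deposited. At the strong end 341 members had both scores at or above 5, and 32 had both at or above 10.

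In skin, most members had a peak again by W12 but less often than not at W6. The list labelled W1 held a peak in 768 members (67.7%, against 92.6% of all regions with D0 and noDOX peaks). At W6 a peak was present in 516 (45.5%, 95% Wilson interval 42.6 to 48.4, against 94.7%), and at W12 in 799 (70.5%, 67.7 to 73.0, against 96.5%). Such intervals cover the counting of regions in these lists only. In the 1200 regions closed in skin only, chosen by the same W2 rule, the shares were 64.6% at W6 and 77.8% at W12, and 72.2% in the list labelled W1. The members were thus below that class in all 3 lists, by most at W6. In the list labelled W1 this did not hold above the lowest D0 score quartile. There the shares were 88.2% against 89.7% in the second quartile and 93.3% of 45 against 92% of 25 in the third.

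Over both late lists, 452 members (39.9%) had a peak at W6 and W12, 347 (30.6%) at W12 alone, 64 (5.64%) at W6 alone and 271 (23.9%) at neither. The shares were 57.4%, 20.4%, 7.17% and 15% of regions closed in skin only and 93.3%, 3.18%, 1.37% and 2.13% of all regions. The gap at W6 did not follow the strength of the D0 peak. Across the D0 score quartiles from the lowest, W6 peaks were present in 44.8%, 47.2% and 48.9% of members, against 95.4%, 98.6% and 99.4% of regions kept in both. At W12 the member shares were 66.3%, 81.5% and 84.4%, higher where the D0 peak was stronger. The W6 list was the longest of the 12 (75909 peaks on these chromosomes, against 71453 at W12). With all lists shortened to the length of the shortest, 1257 regions met the rule, of which 666 overlapped a member. Their W6 share was 27.1% and their W12 share 56.2%, against 88.5% and 92.2% of all regions. The lowest −log10 q-value kept at W6 was 5.74, against 10.1 at W12 and 4.21 at W2. For the difference between W6 and W12, the week and the grafted source cannot be told apart.

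In culture, the 5 arms outside the rule comprised 4 with shares close to each other and 1 that stood below them. ΔHMG-SOX9 had a peak in 711 members (62.7%, 59.8 to 65.5, against 88.4% of all regions), ΔTA-SOX9 in 703 (62.0%, against 86.8%), AFOS in 711 (62.7%, against 86.7%) and SOX9+ARID1a in 690 (60.8%, against 85.5%). SOX9+AFOS had a peak in 328 (28.9%, 26.4 to 31.6, against 80.0%), so that 806 members had no peak in that arm either. All 5 arms are set against 1 noDOX list, so their shares are not independent of each other.

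**Figure D1:**
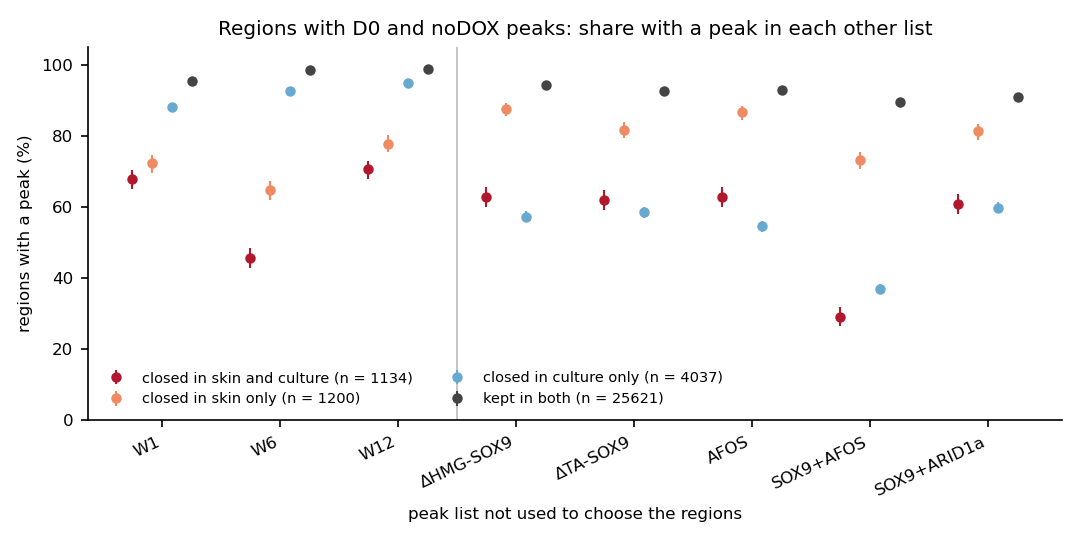
Percent of regions with a peak (vertical axis) in each of the 8 lists outside the rule (horizontal axis) for the 4 classes of regions with D0 and noDOX peaks; points are shares and bars 95% Wilson intervals over regions. Members (red) lie lowest in all 3 skin lists and in SOX9+AFOS, at 28.9%, while in the other 4 culture arms they lie between 60.8% and 62.7%, above the regions closed in culture only.

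The regions closed in culture only, which share the noDOX and WT-SOX9 part of the rule, give the closer comparison. They had peaks in 57.2% of cases in ΔHMG-SOX9, 58.5% in ΔTA-SOX9, 54.6% in AFOS and 59.7% in SOX9+ARID1a, in each case under the members, and in 36.8% in SOX9+AFOS, above the members. Within the lowest noDOX quartile the order was the same in SOX9+AFOS and ΔHMG-SOX9, with 29.6% of 867 members and 34.9% of that class in SOX9+AFOS, and 55.7% against 47.6% in ΔHMG-SOX9. In the second quartile it was 25.2% of 242 members against 41.7% in SOX9+AFOS, and 85.1% against 79.2% in ΔHMG-SOX9, while in SOX9+ARID1a members were no longer the higher, at 81.8% against 82.5%. Regions kept in both had 72.6% and 84.7% in SOX9+AFOS in these quartiles. In ΔHMG-SOX9, ΔTA-SOX9, AFOS and SOX9+ARID1a the member shares were between 78.9% and 85.1% in the second quartile, above those in the lowest, and in SOX9+AFOS the share showed no such increase. Its intervals in both quartiles overlapped (26.7 to 32.8 and 20.2 to 31.0), and in the third it was 10 of 25 members.

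**Figure D2:**
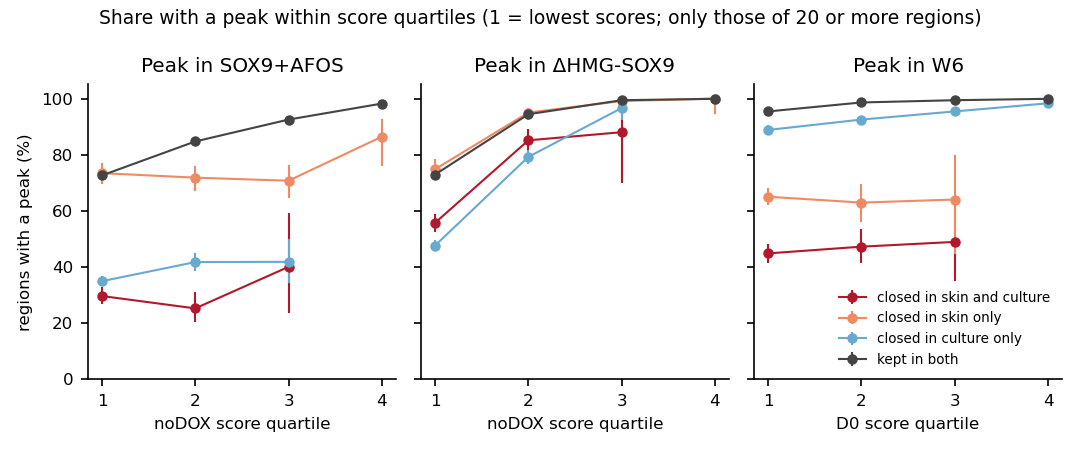
Percent of regions with a peak in SOX9+AFOS, ΔHMG-SOX9 and W6 (vertical axes) within quartiles of the noDOX or D0 score (horizontal axes, 1 is lowest) for the 4 classes; bars are 95% Wilson intervals, and quartiles with fewer than 20 regions are not drawn. Member shares in ΔHMG-SOX9 are higher at higher scores (55.7% and 85.1%), while those in SOX9+AFOS (29.6% and 25.2%) and W6 (44.8% and 47.2%) are low in both of the lower quartiles, which hold most members.

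The combinations of arms repeat this split. Shares of regions closed in culture only and of all regions are given in that order beside each. The most frequent, in 259 members (22.8%, against 16.0% and 8.11%), was a peak in ΔHMG-SOX9, ΔTA-SOX9, AFOS and SOX9+ARID1a but not in SOX9+AFOS. In 138 (12.2%, against 10.5% and 3.34%) only ΔHMG-SOX9, ΔTA-SOX9 and AFOS had one. No arm had a peak in 104 (9.17%, against 8.65% and 1.83%) and all 5 had one in 93 (8.20%, against 10.3% and 65.1%). The inverse pattern, peaks in SOX9+AFOS and SOX9+ARID1a and none in the other 3, held in 56 members (4.94%, against 7.95% and 2.52%), and 50 (4.41%, against 5.38% and 1.10%) had a peak in SOX9+ARID1a alone. A ΔHMG-SOX9 peak without a SOX9+ARID1a peak occurred in 236 members (20.8%) and the reverse in 215 (19%), close to the 20.1% and 22.6% of regions closed in culture only and above the 7.42% and 3.81% of regions kept in both. Over all 8 lists outside the rule, 29 members (2.56%, against 8.60% and 61.2%) had a peak in every one and 3 (0.265%, against 0.0495% and 0.0156%) in none.

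The W12 state in skin went in part with the states in culture, and the W6 state did not follow the same orders. Members with a SOX9+AFOS peak had a W12 peak in 57.0% of 328 cases and those without one in 75.9% of 806. For ΔTA-SOX9 the order was the other way, with 77.2% of 703 and 59.4% of 431, and so it was for ΔHMG-SOX9 (74.8% and 63.1%), AFOS (73.7% and 65.0%) and, by less, SOX9+ARID1a (71.7% and 68.5%). Regions closed in skin only had the same orders, with 76.4% and 81.7% for SOX9+AFOS and 80.3% and 66.8% for ΔTA-SOX9, whereas regions kept in both had the SOX9+AFOS order reversed, at 98.9% and 97.8%. In members at W6, the SOX9+AFOS and ΔTA-SOX9 splits gave 46.0% against 45.3% and 46.2% against 44.3%. The other arms had slightly fewer W6 peaks where the arm had a peak. The shares were 44.3% against 47.5% for ΔHMG-SOX9, 44.6% against 47.0% for AFOS and 44.1% against 47.7% for SOX9+ARID1a.

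Sequence content differed between the members and the other classes, and in the central 200 bp AP1 differed most from all regions in percentage points. Of the 1134 members, 323 (28.5%, 25.9 to 31.2) held an AP1 match on either strand in the central 200 bp, against 240 of the 1200 regions closed in skin only, 23.2% of those closed in culture only, 14.4% of those kept and 16.2% of all. GATA matches were held by 149 members (13.1%), against 7.92%, 12.6%, 6.35% and 7.44% in the same order, so that regions closed in culture only were level with them. For TP63 these shares were 11.8%, 7.92%, 9.61%, 6.60% and 7.22%. SOX letters (ACAATNG, with G or A as the open base) were no more frequent in members than elsewhere, at 2.47% against 3.03% of all regions. CTCF, the insulator factor, had a match in 1.23% of members and in 1.89% of regions kept in both, and the class that stood apart was that closed in skin only, at 5.58%. Of the others, TEAD (GGAATG, 16.6% of members and 12.6% of all), RUNX (TGTGGT, 14.7% and 12.3%), CEBP (TTGCNNAA, 10.3% and 7.82%), KLF (CCACACCC, 4.67% and 3.58%), GRHL (AACCGGTT or AACAGGTT, 2.73% and 1.36%) and TBX (AGGTGTGA, 1.59% and 1.04%) were above all regions, and ETS (GGAAGT) was 14.7% against 14.2%. Over whole regions, which are narrower in members, each of these 7 was less frequent in members than in all regions. TEAD was at 37.5% against 44.9%, GRHL at 5.20% against 5.24%, and ETS lay furthest apart, at 34.1% against 50.5%. In the central 200 bp, some were as frequent or more so in the closest classes. TEAD was in 16.8% and RUNX in 15.6% of regions closed in skin only. CEBP was in 11.1% and TBX in 1.59% of those closed in culture only. KLF, GRHL and ETS were lower than in members in both classes. An AP1 and a GATA match occurred together in 40 members (3.53%, against 1.82% of all).

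**Figure D3:**
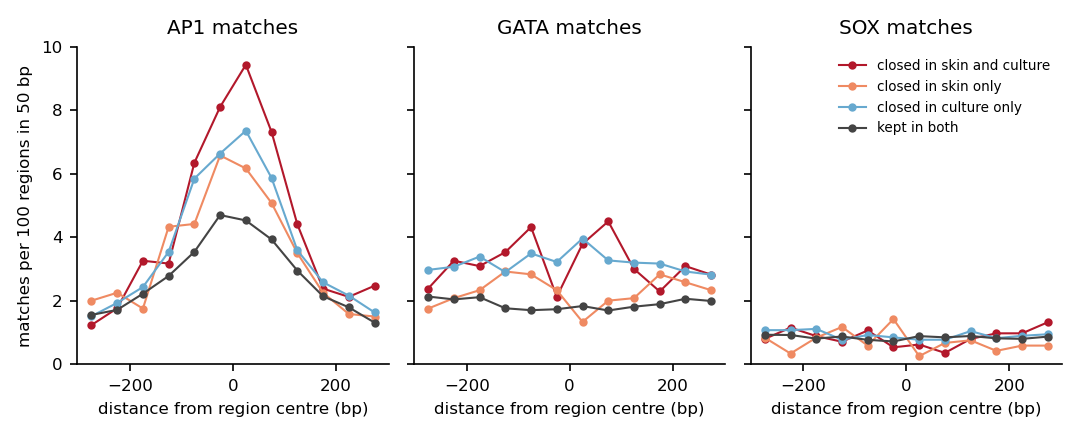
Matches per 100 regions in 50 bp steps (vertical axes) by distance from the region centre (horizontal axes) for AP1, GATA and SOX in the 4 classes. AP1 matches in members (red) peak at the centre with 9.44 per 100 regions, against 4.53 in regions kept in both, GATA matches show no central peak, and SOX matches are few in all classes.

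The AP1 difference from regions kept in both was smaller away from TSSs, and among weak peaks it depended on the score used: in the lowest noDOX quartile AP1 was in 27.8% of members and 10.5% of kept regions, and in the lowest D0 quartile in 27.6% and 16.1%. Members lay within 1 kb of a TSS in 3.62% of cases and regions kept in both in 40.3%. The median distances were 22273 and 6391 bp, the median widths 587 and 1013 bp, and the median GC contents of the central 200 bp 48% and 54.5%. The classes closed in skin only and closed in culture only were nearer to the members. They lay within 1 kb of a TSS in 7.83% and 7.01% of cases, with median distances of 18653 and 27033 bp. Their median widths were 662 and 715 bp and their median GC contents 49.5% and 49%. By their centre 628 members (55.4%, against 45.6% of all regions) were intronic and 453 (39.9%, against 33.3%) intergenic, and 331 (29.2%, against 20.1%) were more than 50 kb from a TSS. Of the regions closed in skin only and in culture only, 54% and 50.3% were intronic and 37.7% and 42.1% intergenic. More than 50 kb from a TSS were 24% and 33.6% of them. Without the regions within 1 kb of a TSS, AP1 matches were in 28.7% of members and 22.5% of regions kept in both, and GATA in 13.2% and 9.20%. With only the lowest noDOX quartile of these, AP1 was in 28% of 833 members and 12.9% of 2882 kept regions, and GATA in 14.4% and 8.36%. For GATA the second quartiles, with regions near TSSs included, differed by the score used. It was in 8.26% of members and 7.63% of kept regions by noDOX, and in 16.5% and 6.79% by D0. Over whole regions AP1 was in 46.8% and 36.1%, whereas GATA (33.0% and 32.7%) and TP63 (27.2% and 28.3%) no longer differed by more than 2 percentage points, and GATA was in 36.5% of regions closed in culture only.

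AP1 content also divided the members by their state elsewhere. Members without a SOX9+AFOS peak held an AP1 match in 35.4% of 806 cases and those with one in 11.6% of 328. Read the other way, SOX9+AFOS had a peak in 38 of the 323 members with an AP1 match (11.8%) and in 290 of the 811 without (35.8%). In the list labelled AFOS the order was opposite, with a match in 33.1% of members with a peak and 20.8% of those without, and so it was in ΔTA-SOX9 (33.3% and 20.6%). SOX9+ARID1a did not divide them, at 28.7% and 28.2%. Regions kept in both showed the same 2 orders, with AP1 in 12.5% with and 30.7% without a SOX9+AFOS peak, and 14.8% and 9.62% for AFOS, so this is not particular to the members.

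In skin the order differed between lists. In the list labelled W1, members without a peak held AP1 in 36.9% of 366 cases and those with a peak in 24.5% of 768. At W12 the members with a peak were the ones with more AP1, 32.9% of 799 against 17.9% of 335, and at W6 the shares were 32.2% and 25.4%. GATA went the other way at the late times. It was found in 11.4% of members with a W12 peak and 17.3% of those without, and in 9.88% and 15.9% at W6. Regions kept in both had the same orders, with AP1 in 13.6% with and 31.9% without a peak in the list labelled W1 and in 14.5% and 6.41% at W12, and GATA in 6.29% and 11.2% at W12 and 6.24% and 14.3% at W6, so these orders are not particular to the members either. AP1 at W6 was in 14.4% of kept regions with a peak and 16.2% of those without. Read by motif, 81.4% of the members with AP1 and 61.1% of those with GATA had a W12 peak.

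**Figure D4:**
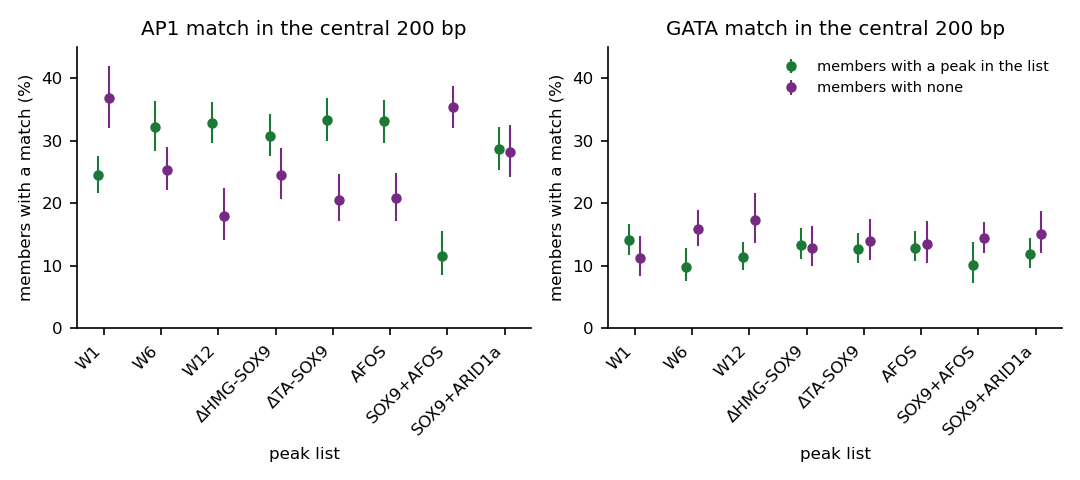
Percent of members with an AP1 (left) or GATA match (right) in the central 200 bp (vertical axes), for members with a peak (green) and without one (purple) in each of the 8 lists outside the rule; bars are 95% Wilson intervals. AP1 shares lie furthest apart in SOX9+AFOS, 11.6% with a peak and 35.4% without, and the order there and in the list labelled W1 is the inverse of that in W12, ΔTA-SOX9 and AFOS.

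Individual members show these states, and the strongest by their lower within-list score percentile are given first. The highest lay in an intron of Mroh2a nearest to Hjurp, a chaperone of centromeric histone (chr1:88256978-88257646). Its scores were 26.7 at D0, 22.9 in the list labelled W1, 4.51 at W6, 12 at W12, 30.0 in noDOX, 8.49 in ΔHMG-SOX9, 3.88 in ΔTA-SOX9, 19.1 in AFOS, 34.2 in SOX9+AFOS and 43.6 in SOX9+ARID1a. It was therefore without a peak in the W2 and WT-SOX9 lists alone.

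The second, 1972 bp from the TSS of Odc1 (chr12:17542504-17543140), also had a peak in all 8 other lists. Odc1 encodes the first enzyme of polyamine synthesis. The region's scores were 19.1 at D0, 9.43 in the list labelled W1, 8.92 and 13.1 at W6 and W12, 20.9 in noDOX, 16.3 in ΔHMG-SOX9, 16.9 in ΔTA-SOX9, 21.3 in AFOS, 4.32 in SOX9+AFOS and 29.3 in SOX9+ARID1a. Hbegf, a ligand of the EGF receptor, had a member 1579 bp from its TSS with the same all-but-2 pattern (chr18:36517081-36517687). It scored 16.1 at D0 and 17.4 in noDOX, 8.24 in the list labelled W1, 8.39 and 6.74 at W6 and W12, and 33.9, 42.7, 19, 26.1 and 19.7 in ΔHMG-SOX9, ΔTA-SOX9, AFOS, SOX9+AFOS and SOX9+ARID1a.

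The Wdr60 intron (chr12:116254662-116255093, a subunit of the ciliary dynein), whose sequence is shown above, scored 20.4 at D0 and 20.1 in noDOX. It had no peak in the list labelled W1, 3.26 at W6 and 11.6 at W12, and 18.3, 20.7, 14.2 and 10.2 in ΔHMG-SOX9, ΔTA-SOX9, AFOS and SOX9+ARID1a, with none in SOX9+AFOS. The same arm pattern was present at the region near Ikbke, a kinase of innate immune signalling (chr1:131293728-131294402), with scores of 14.2 at D0, 15.7 in noDOX and 21.4 at W12. It was also present near Fbxo32, a ubiquitin ligase subunit (chr15:58222867-58223360, 12.1 at D0, 14.6 in noDOX and 16.3 at W12), and in a Rasgef1b intron (chr5:99432424-99432941, 15.5 and 14.2, with 4.41 at W12). All 4 of these regions hold AP1 letters.

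Other strong members went differently. The region nearest to Mrgprb3 (chr7:48657801-48658456) scored 28.4 at D0 and 14.9 in noDOX and had no peak at any later week. In culture it scored 15.0, 13.5 and 14.7 in ΔHMG-SOX9, ΔTA-SOX9 and AFOS, and 3.05 and 3.46 in SOX9+AFOS and SOX9+ARID1a. The region nearest to Cpeb2 (chr5:42980908-42982035) scored 18.1 at D0 and 13.8 in noDOX and followed the inverse arm pattern, with peaks in SOX9+AFOS (5.61) and SOX9+ARID1a (7.99) and none in the other 3. The region nearest to Eapp, over the noncoding gene Gm23804 (chr12:54713985-54714487), scored 14.5 at D0, 17.8 in noDOX and 12.7 at W12 and had no peak elsewhere.

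The 3 members with a peak in none of the 8 other lists were weak. They lay in introns of Slc1a3, a glutamate transporter gene (chr15:8676363-8676837, 7.49 at D0 and 3.79 in noDOX) and of Cnot7, a deadenylase gene (chr8:40497737-40498147, 3.46 and 3.79), and between genes nearest to Crp (chr1:172679293-172679672, 5.37 and 3.22). Of the 50 with a SOX9+ARID1a peak and none in the other 4 arms, the strongest was in Katnal1 (chr5:148924912-148925319), with 14.5 at D0, 12.5 in noDOX and 14.7 in SOX9+ARID1a. It was followed by regions 211 bp from the TSS of Tmprss11g, a serine protease gene (chr5:86518502-86519119, 8.93, 7.34 and 5.39), and in Pkp4, a plakophilin gene (chr2:59203990-59204454, 11, 7.10 and 3.09). Of 41 with an AFOS peak and none in ΔHMG-SOX9, SOX9+AFOS and SOX9+ARID1a (3.62%, against 2.95% of regions closed in culture only and 0.628% of all), the strongest were in Lgmn (chr12:102413178-102413689, 6.61 in AFOS), near Gpcpd1 (chr2:132593718-132594151, 3.99 in AFOS and 22.4 at W12 from 5.13 at D0) and in Gria2 (chr3:80780290-80781592, 4.07 in AFOS and 27.5 at D0).

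**Figure D5:**
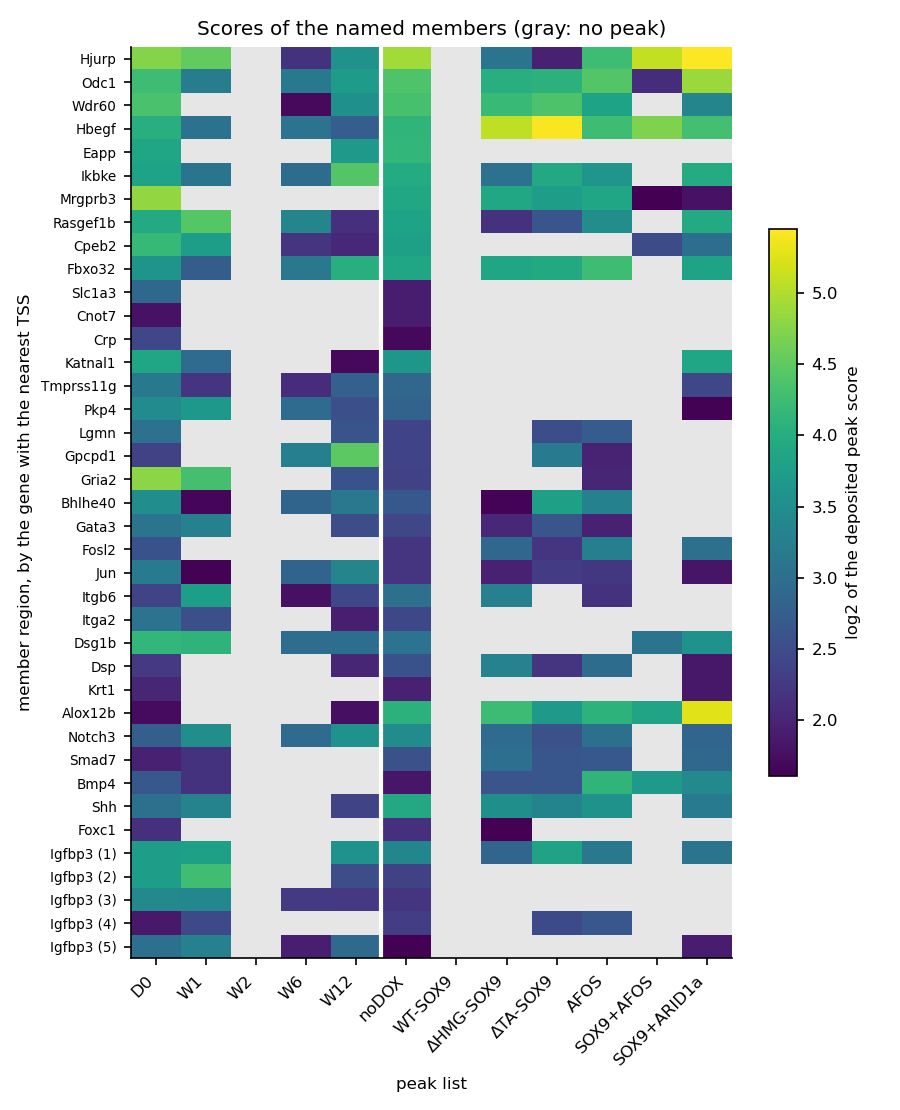
Deposited peak scores on a log2 color scale of the 39 members named by rule (rows, by nearest gene) in the 12 lists (columns); gray marks a list without a peak, which W2 and WT-SOX9 are for all rows by choice. SOX9+AFOS is gray in most rows, and the rows for Hjurp, Odc1 and Hbegf have a peak in all 10 other lists.

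Genes of the epidermal and hair follicle programmes were the nearest genes of 37 members (3.26%), near the 2.92% of all regions with D0 and noDOX peaks, over 8 lists of 140 genes. Members took 3.96% of the regions nearest to listed genes, and 3.54% of all. By list they numbered 7 for epidermal transcription factors (0.617% of members, 0.797% of all regions), 4 for AP1 subunits (0.353% and 0.163%), 5 for basal adhesion and matrix (0.441% and 0.381%), 3 for desmosomes and tight junctions (0.265% and 0.234%), 3 for keratins and differentiation (0.265% and 0.203%), 7 for Notch and EGF receptor signalling (0.617% and 0.394%), 3 for TGF-β and BMP signalling (0.265% and 0.328%) and 5 for hair follicle stem cell genes (0.441% and 0.422%). With so few members per list, these shares give no direction for any of the lists.

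Among the transcription factors, a region in an Itpr1 intron nearest to Bhlhe40, a basic helix-loop-helix repressor (chr6:108452269-108452760), scored 11.2 at D0, 6.35 in noDOX, 8.86 at W12, 13.8 in ΔTA-SOX9 and 9.80 in AFOS, with none in both combined arms. The one nearest to Gata3 was 430490 bp from its TSS (chr2:9447857-9448363) and scored 8.48 at D0, 5.35 in noDOX and 5.74 at W12. Of the AP1 genes, Fosl2 had a member centred in its own intron and reaching into an exon (chr5:32146037-32146845, 5.98 at D0, 4.59 in noDOX and 9.62 in AFOS) with no peak in the list labelled W1 or at W6 or W12. The Jun member, in an intron of Junos (chr4:95158647-95159089), scored 9.10 at D0, 4.56 in noDOX and 10.2 at W12. Both lacked a peak in SOX9+AFOS, as did 71.1% of all members.

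Adhesion genes gave an intronic member of Itgb6, an integrin of injured epithelium (chr2:60695695-60696324, 5.25 at D0, 13.6 in the list labelled W1, 8.13 in noDOX and 9.73 in ΔHMG-SOX9), and one of Itga2, a collagen receptor subunit (chr13:114930124-114930499, 8.40 and 5.42), which had no peak in any of the 5 arms. Desmosomal genes gave the only promoter among these. It lay 14 bp from the TSS of Dsg1b (chr18:20376439-20377046), which scored 17.8 at D0, 17.2 in the list labelled W1, 7.89 and 8 at W6 and W12, 8.41 in noDOX, 8.47 in SOX9+AFOS and 12 in SOX9+ARID1a, with none in the other 3 arms. The Dsp member (chr13:38132644-38133051) scored 4.76 at D0, 5.99 in noDOX and 9.87 in ΔHMG-SOX9, with none in SOX9+AFOS. Of the differentiation genes, the Krt1 member (chr15:101856901-101857378) scored 4.05 and 3.89. The member in Alox12b, a lipoxygenase of the skin barrier (chr11:69160335-69160929), scored 3.30 at D0 against 16.8 in noDOX and 38.6 in SOX9+ARID1a.

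Of the signalling genes, Notch3 had a member 3271 bp from its TSS (chr17:32169687-32170558) at 6.82 at D0, 11 in noDOX and 11.8 at W12. Smad7, an inhibitor of TGF-β signalling (chr18:75318732-75320026, 3.89 and 5.87), and the ligand Bmp4 (chr14:46512103-46512486, 6.33 and 3.57, 17.4 in AFOS and 12.7 in SOX9+AFOS) had members without a W6 or W12 peak. Of the follicle genes, the ligand Shh was nearest to a region in an Rbm33 intron (chr5:28397177-28397772, 8.12 at D0, 15.2 in noDOX, 5.29 at W12 and none in SOX9+AFOS). Foxc1 had a member over its coding exon (chr13:31807838-31808650, 4.38 and 4.40), with its only other peak in ΔHMG-SOX9 (3.08).

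The 1134 members had 1007 different nearest genes, of which 898 had 1 member. Igfbp3, an insulin-like growth factor binding protein, was the only one with 4 or more, with 5 members among its 13 regions with D0 and noDOX peaks. They were spread from chr11:7215739-7216704, 2299 bp from its TSS, to chr11:7605031-7605838, 391512 bp away. Their D0 scores were 3.67, 8.08, 10.7, 13.4 and 13.6, and their noDOX scores 4.97, 3.07, 4.55, 10.3 and 5.08. None of the 5 had a SOX9+AFOS peak and 4 had a W12 peak. Among all members 71.1% had no SOX9+AFOS peak and 70.5% had a W12 peak.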

How the data were processed

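Chromatin accessibility (ATAC-seq) of sorted and cultured EpdSCs was used as 12 deposited peak lists. The authors' pipeline (PEPATAC, GRCm38) merged both replicates of each group before MACS2 peak calling, retained duplicates and kept peaks with a normalized score of at least 3; the submitters' processing notes name Bowtie2 2.2.9 and MACS2 2.1.1. The deposited score is per peak; the in vivo files also hold the authors' fold enrichment over local background, not used here for any comparison, and the −log10 q-value deposited by the authors. Depth is unknown. 

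Peaks were merged when they overlapped by at least 1 bp (Python 3.11.15, pandas 2.3.3), and members were taken by the rule above. The members and lists were chosen with earlier results of these data known. Members were ranked by the lower of their D0 and noDOX score percentiles. The text names the 10 highest, the 3 highest of each of 5 states, the 2 highest of each gene list, and genes nearest to 4 or more members. Motifs were sought on both strands of the GRCm38 sequence, and TSSs are of GENCODE. The steps were tested on simulated data. Alternatives changed the score minimum, list length, −log10 q minimum, merging overlap, region definition, scanned window and TSS distance.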

Additional observations from a re-analysis of the deposited data

How the results depend on the processing

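No paired analysis was possible because both replicates of a group were pooled before peaks were called, and for the same reason leaving out a replicate was not run. In all 56 shares recomputed over 7 alternatives the members lay below all regions with D0 and noDOX peaks. The rule takes regions without W2 and WT-SOX9 peaks, mostly weak ones, so this order is partly built in. The 7 alternatives use the same peaks and are not independent checks. With a score of at least 5 in all lists, 891 regions met the rule, of which 341 overlapped the members. The W6 and W12 shares were 40.7% and 66.8%, against 94.0% and 95.9% of all regions. With lists shortened to the shortest, 1257 regions met the rule, of which 666 overlapped a member. Shares were 27.1% at W6, 56.2% at W12, 56.9% in ΔTA-SOX9, 52.8% in AFOS, 32.8% in SOX9+AFOS and 55.4% in SOX9+ARID1a. All regions then had 88.5%, 92.2%, 85.4%, 83.7%, 82.5% and 83.5% in the same order. With a common −log10 q minimum in vivo, which shortens W2 most, 2749 regions met the rule, of which 1134 overlapped a member. Shares were 62.9% in the list labelled W1, 31.3% at W6, 59.6% in ΔHMG-SOX9, 59.1% in ΔTA-SOX9, 57.9% in AFOS and 33.4% in SOX9+AFOS. All regions then had 87.4%, 82.6%, 88.4%, 86.8%, 86.7% and 80.0% in the same order. Regions from D0 and noDOX overlaps alone gave 57.1% in SOX9+ARID1a, against 84.0% of all. The 341 members with both scores at least 5 gave 78.0% in the list labelled W1, 79.8% at W12, 78.0% in ΔHMG-SOX9, 75.4% in ΔTA-SOX9, 75.4% in AFOS and 74.2% in SOX9+ARID1a. All regions with such scores had 97.0%, 98.8%, 94.3%, 92.9%, 92.7% and 91.8% in the same order. Scanning whole regions gave AP1 46.8%, GATA 33.0% and SOX 10.5%, against 37.5%, 33.0% and 15.9% of all regions, and 18.2% of members (47.5% of regions kept in both) lay within 5 kb of a TSS. The comparisons without TSS-near regions were chosen after seeing the data. SOX9+AFOS kept the lowest share of the 5 arms in all 7 alternatives.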
